A study of Mus musculus with 9 samples.

Results

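A set of 10 genes was examined in LSK cells, the immature blood-forming cells of bone marrow that lack lineage markers and carry Sca-1 and c-Kit. The set comprised Cldn15, Dmkn, Fcgr3, Sgms2, Kel, Trem3, Prom1, Cd36, Dgat2 and Gpr141b. These 10 of 14461 deposited genes were chosen by their large rises in LSK cells labelled circulating, leaving out genes of granule proteins. They were selected on the signal of the circulating libraries against the other groups, so those differences are given as a description and carry no test. All 10 genes were found in the deposited table and all 10 passed the filter on low values.

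The LSK cells were sorted from marrow of parabiotic mice, pairs joined by surgery whose blood mixes. The design text concerns LSK cells that reached the marrow of an irradiated parabiotic mouse through the circulation. There were 3 libraries in each of 3 groups. The circulating and irradiated groups carry the strain label C57BL/6, and the endogenous group carries B6SJL CD45.1. The labels name no altered gene beyond the strains. No radiation dose, time after surgery or age is given in the sources used here. Each library is labelled as coming from a specific-pathogen-free mouse, but the labels do not state whether a group's 3 libraries represent different animals. The p-values then measure only the spread between these libraries, which may be technical.

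The c-Kit gene Kit had a mean signal of 379 ± 45.1 (SD, n = 3) in the circulating group, 587 ± 31.3 in the irradiated group and 878 ± 137 in the endogenous group. It was lower in circulating than in endogenous cells, with an adjusted p of 0.00257 in limma's test. The Sca-1 gene Ly6a and the CD45 gene Ptprc were detected in all 9 libraries, and neither was called in that comparison. The strain label differs between endogenous cells and the other groups, so by the labels strain and group cannot be told apart in the comparisons with endogenous cells. Among genes near Ptprc, chosen here after their values were seen, Ctse lies 6.39 Mb away on chromosome 1. Its signal was 508 to 713 in circulating, 45.4 to 75.7 in irradiated and 711 to 831 in endogenous libraries. Cxcr4, 9.47 Mb from Ptprc, had 57.8 to 65.8, 8.54 to 14.5 and 44.2 to 50.8 in the same order. In both genes the circulating libraries stood near the endogenous ones, although their strain label is that of the irradiated libraries. Whether these values reflect strain was not tested. If the circulating cells carried the endogenous strain, strain and group could not be told apart in circulating against irradiated cells, instead of in circulating against endogenous cells. Fcgr3 is the only member on chromosome 1 and lies 32.9 Mb from Ptprc.

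As background, LSK cells include stem cells and multipotent progenitors, which begin to express genes of a lineage before they leave the LSK gate. Many activating Fc receptors and Trem receptors of myeloid cells signal through small adaptor proteins with activation motifs. Sphingomyelin and triglyceride are made by enzymes that join a head group or a fatty acid to a lipid backbone, and Cd36 brings fatty acids into cells.

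Promoter windows of 250 bases upstream of a transcript start, from the RefSeq table for GRCm38.p6, matched 8 of the 10 genes and gave 17 windows. Trem3 and Dgat2 had no entry. Each window was searched on both strands for the letters GAGGAAGT, a site of the factor PU.1, TTGCNNAA, a site of C/EBP factors, and AGATAA, which erythroid GATA factors bind. The other motifs were TGTGGT, a site of RUNX factors, and TATAAA, the TATA box, and none of the 5 motifs contains another. GAGGAAGT stood in a window of Prom1, and 2.79% of all 27025 genes with a window held it. TTGCNNAA stood in windows of Dmkn and Fcgr3, against 10.8% of all genes. AGATAA stood in the window of Kel, against 11.4%, and TGTGGT in windows of Sgms2 and Prom1, against 15.9%. TATAAA, which 14.3% of all genes held, was in none of the 17 windows, and no window held more than 1 match. These shares are per gene. All 27025 genes had 32851 windows, fewer per gene than the 8 members had, so the members had more room for a match. The windows below show a myeloid-type match in an immune receptor gene and in Prom1 and an erythroid-type match in Kel. They also show 2 genes without any match. Capitals mark the match, which begins 28 (Fcgr3), 71 (Prom1) and 56 (Kel) bases before the start, and in Fcgr3 and Prom1 it is the reverse complement of the motif. The windows are Fcgr3 chr1:171059404-171059653 minus strand, Prom1 chr5:44094769-44095018 minus strand, Kel chr6:41704326-41704575 minus strand, Cldn15 chr5:136967619-136967868 plus strand and Cd36 chr5:17835897-17836146 minus strand.
Fcgr3: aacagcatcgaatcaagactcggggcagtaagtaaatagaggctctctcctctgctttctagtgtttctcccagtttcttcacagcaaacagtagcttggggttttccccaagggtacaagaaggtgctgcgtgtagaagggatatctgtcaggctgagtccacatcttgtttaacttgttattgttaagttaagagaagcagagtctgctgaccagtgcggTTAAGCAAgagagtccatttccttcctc
Prom1: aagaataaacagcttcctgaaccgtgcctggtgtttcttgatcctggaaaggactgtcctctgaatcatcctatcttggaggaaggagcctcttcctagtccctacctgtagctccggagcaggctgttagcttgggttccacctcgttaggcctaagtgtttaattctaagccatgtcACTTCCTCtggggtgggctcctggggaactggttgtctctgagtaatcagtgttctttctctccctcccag
Kel: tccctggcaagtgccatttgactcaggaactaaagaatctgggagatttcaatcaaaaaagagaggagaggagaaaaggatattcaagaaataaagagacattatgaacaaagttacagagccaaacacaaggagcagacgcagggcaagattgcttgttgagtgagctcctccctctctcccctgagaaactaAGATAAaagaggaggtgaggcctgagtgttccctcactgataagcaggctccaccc
Cldn15: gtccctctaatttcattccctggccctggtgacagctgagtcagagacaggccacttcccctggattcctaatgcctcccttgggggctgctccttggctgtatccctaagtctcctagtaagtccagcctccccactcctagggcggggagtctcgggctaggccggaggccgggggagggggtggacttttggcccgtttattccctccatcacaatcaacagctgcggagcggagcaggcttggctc
Cd36: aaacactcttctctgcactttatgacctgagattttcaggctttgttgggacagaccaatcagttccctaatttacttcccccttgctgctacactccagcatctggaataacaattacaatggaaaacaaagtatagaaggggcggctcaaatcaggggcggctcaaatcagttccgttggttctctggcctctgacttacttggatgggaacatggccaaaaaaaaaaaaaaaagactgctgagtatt
A match describes letters in a window and does not show binding. Median GC content was 50.8% over the members' windows and 52.4% over all windows.

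Values below are the deposited normalised signal, in which an estimated count of 0 corresponds to 0.0182 to 0.0376 depending on the library. Means are given with the SD over 3 libraries, and folds are ratios of group means. Differences on the log2 scale are of log2(value + 1), which understates changes of genes with low values. Coordinates are from GRCm38.

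Among the immune receptor genes, Fcgr3 (ENSMUSG00000059498, chr1:171051174-171064935, minus strand) encodes the low-affinity activating IgG receptor known as CD16. Its signal in circulating replicates 1, 2 and 3 was 105, 256 and 352, in irradiated replicates 92.0, 56.3 and 123, and in endogenous replicates 25.1, 14.8 and 11.4. Every circulating and every irradiated library stood above every endogenous library, while circulating replicate 1 lay below irradiated replicate 3. The group means were 238 ± 125, 90.3 ± 33.1 and 17.1 ± 7.12, and the circulating mean was 13.9 times the endogenous mean. Of the 50-base stretches in Fcgr3 transcripts, 9.58% also occur in Fcgr2b, so estimated counts may be shared between these receptors.

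Trem3 (ENSMUSG00000041754, chr17:48247777-48258841, plus strand) encodes a Trem receptor that signals through the adaptor DAP12. Circulating libraries had 55.3, 115 and 202, irradiated libraries 67.0, 42.9 and 72.0, and endogenous libraries 12.5, 7.61 and 7.72. Circulating replicate 1 lay within the irradiated range, and neither group reached down to the endogenous libraries. The means were 124 ± 73.7, 60.6 ± 15.6 and 9.28 ± 2.80, a ratio of 13.4 between circulating and endogenous cells and of 2.05 between circulating and irradiated cells, the smallest such ratio of the 10 genes.

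Gpr141b (ENSMUSG00000047462, chr13:19727426-19732951, minus strand) is named after the orphan receptor Gpr141 beside it, and GENCODE lists it as a long intergenic RNA. Its circulating values were 8.11, 73.1 and 15.9, its irradiated values 4.60, 3.996 and 1.82, and its endogenous values 2.47, 1.26 and 1.53. Circulating replicate 2 stood far above the rest, and even the lowest circulating library was above all irradiated libraries. The circulating mean of 32.4 ± 35.5 was 18.5 times the endogenous mean of 1.75 ± 0.637, and without circulating replicate 2 the values left are 8.11 and 15.9.

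Among the membrane and secreted proteins, Cldn15 (ENSMUSG00000001739, chr5:136966616-136975858, plus strand) encodes a claudin, a tight-junction protein that forms cation pores between epithelial cells of the gut. It had the largest log2 difference of the set and ranked 2 of 13771 tested genes in circulating against endogenous cells. The signal was 62.3, 149.6 and 205 in circulating, 36.3, 33.7 and 62.5 in irradiated, and 7.84, 5.84 and 4.22 in endogenous libraries. Circulating replicate 1 fell just under irradiated replicate 3, and all 6 of these libraries were above the endogenous ones. The means were 139 ± 72.0, 44.2 ± 15.9 and 5.97 ± 1.81, and the log2 difference between circulating and endogenous cells was 4.20 (SE 0.41).

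Prom1 (ENSMUSG00000029086, chr5:43993620-44102032, minus strand) encodes prominin-1, or CD133, a cholesterol-binding protein of membrane protrusions. Circulating libraries held 25.3, 116 and 108, irradiated libraries 20.5, 16.2 and 37.2, and endogenous libraries 8.83, 4.95 and 3.54. Circulating replicates 2 and 3 were close to each other and well above replicate 1, which lay inside the irradiated range. The circulating mean of 83.1 ± 50.1 was 14.4 times the endogenous mean of 5.77 ± 2.74. The antisense gene Gm16401 overlaps the start of Prom1 in the annotation, and the library chemistry does not mark strand, so reads there cannot be told apart.

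Dmkn (ENSMUSG00000060962, chr7:30763756-30781063, plus strand) encodes dermokine, a secreted protein best known from the epidermis. Its values were 10.8, 37.6 and 63.3 in circulating, 14.4, 5.78 and 21.6 in irradiated, and 2.43, 1.39 and 0.754 in endogenous libraries. Circulating replicate 1 was lower than irradiated replicates 1 and 3. The circulating mean of 37.2 ± 26.2 was 24.4 times the endogenous mean of 1.53 ± 0.847.

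Kel (ENSMUSG00000029866, chr6:41686330-41704339, minus strand) encodes the Kell blood group protein, an endopeptidase that is linked to the Xk protein on red cells. It had the lowest circulating mean of the set, with 5.29, 23.1 and 27.5 in circulating, 1.77, 0.310 and 9.97 in irradiated, and 0.214, 0.992 and 0.0967 in endogenous libraries. Irradiated replicate 2 was below endogenous replicate 2, so those groups overlapped. The ratio of circulating to endogenous means was 42.9, the highest of the set, but the endogenous values rest on estimated counts of 5, 22 and 2. On the log2 scale, where 1 is added to each value, the difference was 3.56 (SE 0.75).

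Among the lipid genes, Sgms2 (ENSMUSG00000050931, chr3:131318985-131491411, minus strand) encodes the sphingomyelin synthase of the plasma membrane. The signal was 16.3, 59.3 and 68.4 in circulating, 24.9, 5.46 and 23.0 in irradiated, and 9.03, 0.640 and 1.52 in endogenous libraries. Endogenous replicate 1 stood above irradiated replicate 2, and circulating replicate 1 stood below irradiated replicates 1 and 3. The means were 48.0 ± 27.8, 17.8 ± 10.7 and 3.73 ± 4.61.

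Dgat2 (ENSMUSG00000030747, chr7:99153658-99182719, minus strand) encodes an enzyme of the last step of triglyceride synthesis. Circulating libraries had 13.4, 22.0 and 31.0, irradiated libraries 6.45, 2.61 and 11.4, and endogenous libraries 2.16, 0.639 and 1.61. No groups overlapped in this gene, and its highest circulating value was 2.32 times its lowest, the narrowest spread of the 10 genes. The means were 22.1 ± 8.83, 6.80 ± 4.39 and 1.47 ± 0.769.

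Cd36 (ENSMUSG00000002944, chr5:17781690-17888801, minus strand) encodes a receptor that takes up fatty acids and oxidised lipoproteins. Its circulating values were 23.7, 66.1 and 19.5, its irradiated values 5.47, 3.92 and 5.02, and its endogenous values 3.09, 3.86 and 1.95. All circulating libraries lay clearly above all others, and the irradiated libraries lay just above the endogenous ones. The circulating mean of 36.4 ± 25.8 was 12.3 times the endogenous mean of 2.97 ± 0.959 and 7.59 times the irradiated mean of 4.80 ± 0.795.

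**Figure D1:**
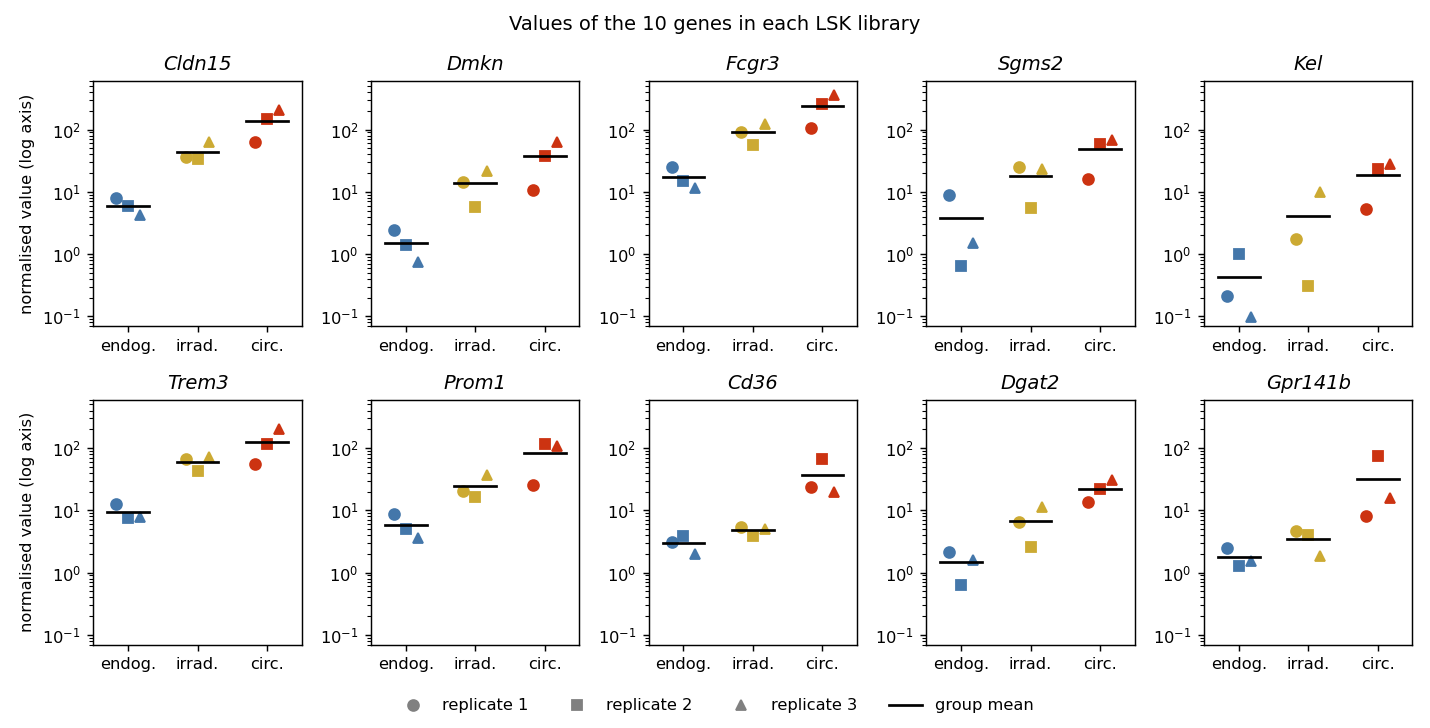
Deposited normalised signal of the 10 genes on a log axis, with 1 point for each of the 3 libraries of each group and a bar at the group mean. Circulating libraries lie above endogenous libraries in all 10 genes, and above irradiated libraries in Cd36, Dgat2 and Gpr141b.

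In a scale per kilobase of exon, on which levels can be compared between genes, the circulating mean signal was highest for Fcgr3 at 137 and Trem3 at 125. Cldn15 followed at 65.5, and the circulating libraries of these 3 genes overlapped. Dmkn stood at 17.0. The other 6 genes lay between 6.73 (Kel) and 11.7 (Gpr141b), and their circulating values per library overlapped between neighbours in this order. In endogenous cells only Fcgr3 (9.86), Trem3 (9.33) and Cldn15 (2.81) had a mean above 1 per kilobase among the 10 genes.

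All 10 genes had group means in the order endogenous, irradiated, circulating. In circulating against endogenous cells, the groups did not overlap in 10 of 10 genes. In 14.6% of all tested genes every circulating library was above every endogenous one, and 5.33% of all tested genes were called higher at an adjusted p under 0.05. Since these values chose the genes, nothing is read from that count. The log2 differences ran from 3.06 (Cd36 and Gpr141b) to 4.20 (Cldn15) with a median of 3.50, beside -0.04 over all tested genes. Against the irradiated libraries, every circulating library was higher in 3 of 10 genes (Cd36, Dgat2 and Gpr141b), beside 7.46% of all tested genes. By their titles, circulating and irradiated libraries with the same number share a code whose meaning is not given. Between libraries of the same code, the circulating library was the higher in all 3 for 7 of 10 genes, the exceptions being Dmkn, Sgms2 and Trem3. No share over all tested genes was taken for this count. High circulating values chose the genes, so nothing is read from it. The log2 differences between circulating and irradiated cells ran from 0.87 (Trem3) to 2.49 (Cd36), with a median of 1.53 beside -0.02 over all tested genes.

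The members sat at the edge of the ranking by log2 difference without a clear gap. The lowest of them, Cd36 and Gpr141b, ranked 21 and 22. Just outside stood Gpx3 at 3.03 on the log2 scale. Igsf6 at 3.43 and Mgl2 at 3.32 stood inside the members' range and are not among the 10. Also inside it were Fcmr at 3.72, Clec5a at 3.32 and the granule genes Elane, Ctsg and Mpo. Of immunoglobulin genes, Iglc3 stood above the range at 4.96, and Ighg2c at 4.20 and Iglv1 at 3.71 inside it, none of them called. The comparisons share libraries, so their values stand side by side and are no separate support for one another.

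**Figure D2:**
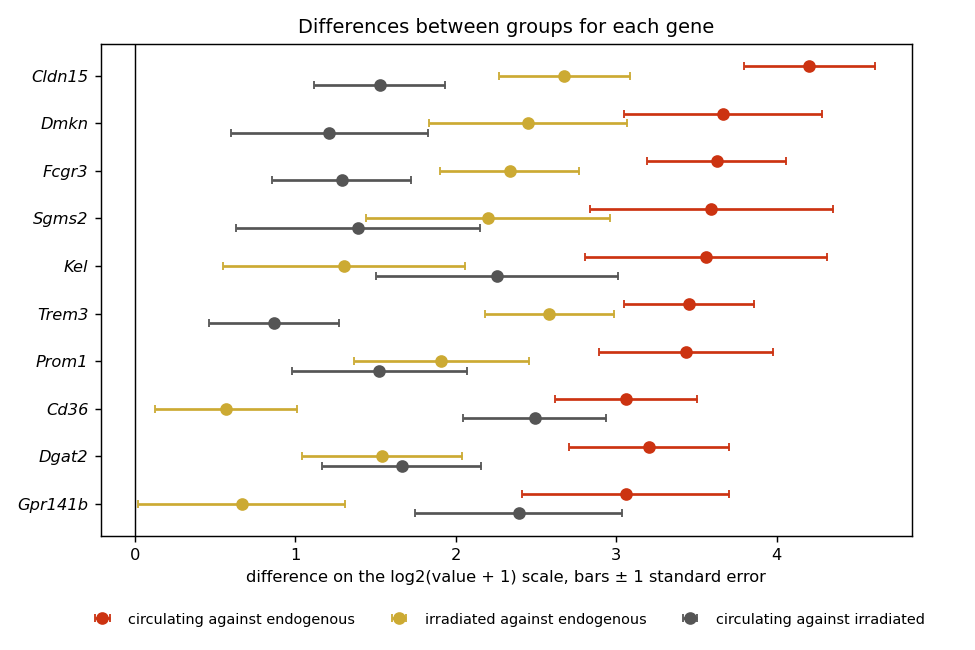
Difference in log2(value + 1) between groups for the 10 genes, with the standard error from limma as bars, for circulating minus endogenous, circulating minus irradiated and irradiated minus endogenous. The irradiated minus endogenous difference is above 2 in Cldn15, Dmkn, Fcgr3, Sgms2 and Trem3 and below 1 in Cd36 and Gpr141b.

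In irradiated against endogenous cells the circulating values enter neither mean, although all 9 libraries set the spread behind the p-values. The comparison shares the endogenous libraries with the choice of genes, and genes picked for low endogenous values are favoured to be higher in irradiated cells. The calls are therefore no independent support. Cldn15, Fcgr3 and Trem3 passed the threshold as higher in irradiated cells, while 0.472% of all tested genes were called higher, and nothing is read from 3 of 10 beside that share. Cldn15 differed by 2.67 on the log2 scale (SE 0.41), with an adjusted p of 0.0168 in limma's test, which ranged from 0.000907 to 0.105 over the alternative settings. Trem3 differed by 2.58, with an adjusted p of 0.0181 (0.000907 to 0.115 over the alternatives). For Fcgr3 the difference was 2.33 and the adjusted p 0.0385 (0.00378 to 0.210 over the alternatives). In all 3 genes each irradiated library was above each endogenous library.

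The other 7 genes did not pass the test in that comparison. Dmkn differed by 2.45 on the log2 scale with an adjusted p of 0.104 in limma's test (0.0161 to 0.375 over the alternatives). Prom1 differed by 1.91 with an adjusted p of 0.134 in that test (0.0212 to 0.439), and both genes passed under 3 of the 15 alternatives. Dgat2 differed by 1.54 with an adjusted p of 0.172 and Sgms2 by 2.20 with 0.198, both from limma. Kel differed by 1.303 with an adjusted p of 0.467 in the same limma test. The smallest differences were those of Cd36, 0.57 with an adjusted p of 0.610, and of Gpr141b, 0.67 with an adjusted p of 0.698, both from limma. The irradiated and endogenous libraries did not overlap in 7 of 10 genes, beside 15.2% of all tested genes in which every irradiated library was the higher. Sgms2, Kel and Gpr141b were the genes with overlap. Calls of Cldn15 and Trem3 were lost when irradiated replicate 1 or 3 or any endogenous library was left out, and that of Fcgr3 also without irradiated replicate 2. Without an irradiated or an endogenous library 0 to 2 of the 10 genes were called. Without circulating replicate 1, 5 were called, Dmkn and Prom1 being added.

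The libraries of a group differed among themselves in a common order. Circulating replicate 1 was the lowest circulating library in 9 of 10 genes, the exception being Cd36. Among all 734 genes called higher in circulating than in endogenous cells, 69.8% were also lowest in this library, against 32.9% of all tested genes. In 7 of 10 genes circulating replicate 1 was at or below the highest irradiated library. Against the endogenous mean it was raised 4.38 to 12.2 times, with a median of 6.61, while the medians for replicates 2 and 3 were 21.2 and 20.8. Irradiated replicate 2 was the lowest irradiated library in 9 genes, Gpr141b being the exception, and endogenous replicate 1 was the highest endogenous library in 8.

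The spread of the members within a group was wider than that of genes at large. The median SD of log2 values among circulating libraries was 1.01 for the 10 genes and 0.382 over all tested genes. Among irradiated libraries the medians were 0.576 and 0.213, and among endogenous libraries 0.473 and 0.262. High circulating values chose the genes, which can favour genes with a wide spread, so these medians are a description only. Genes of like level or like rise were not compared.

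**Figure D3:**
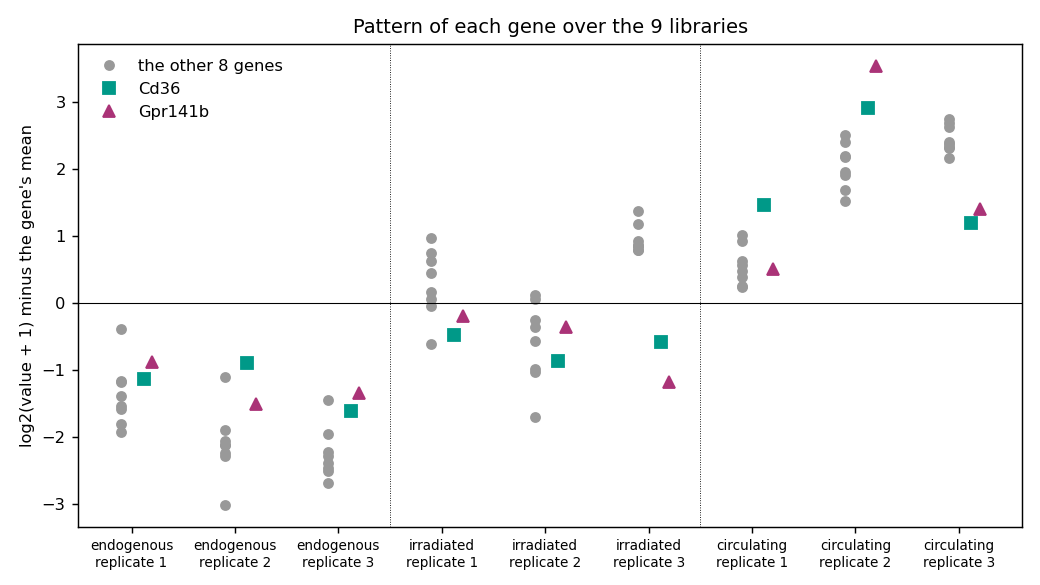
Each gene's log2(value + 1) minus its own mean over the 9 libraries, with 1 point per gene in each library; squares are Cd36, triangles Gpr141b and grey circles the other 8 genes. Cd36 and Gpr141b peak in circulating replicate 2 and stay low in the irradiated libraries, whereas the other 8 genes are high in circulating replicates 2 and 3 and in irradiated replicate 3.

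Cd36 and Gpr141b followed a pattern of their own, a split made after their values were seen. Over the 9 libraries their log2 values correlated with each other at r = 0.937. The 28 pairs among the other 8 genes had r from 0.833 to 0.993 with a median of 0.950, and the 16 pairs across the split had 0.721 to 0.836 with a median of 0.773. These correlations describe 9 libraries in 3 groups, so the group differences that chose the genes make up much of them.

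The genes most like each member over the 9 libraries were sought among 10393 genes. Trem3 was closest to Elane (r = 0.998), which encodes neutrophil elastase of granules, to Ms4a3 (0.997) and to the metallothionein Mt1 (0.994). Fcgr3 was closest to Mpo (0.994), the granule enzyme myeloperoxidase, and then to the members Cldn15 and Dmkn. Cldn15 was closest to Fcgr3 (0.993), Slc35b1 (0.992) and Ms4a3 (0.990), and Dmkn to Fcgr3 (0.991), the oligosaccharyltransferase subunit gene Rpn1 and Mpo. Prom1 was closest to Fcgr3 (0.983), Immt and Igsf6, and Sgms2 to Dok3 (0.978), Igsf6 (0.978) and the haptoglobin gene Hp (0.970). Granule genes had been left out of the choice of members, and Elane and Mpo stood among the closest genes of Trem3, Fcgr3 and Dmkn. Both had log2 differences inside the members' range in circulating against endogenous cells, 3.68 and 3.14. Group differences thus make up much of these correlations too, and they are no separate support.

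Kel was closest to the lysosomal enzyme gene Hexa (0.985), Far2 (0.974) and Mtus1 (0.973), and Dgat2 to Nans (0.986), Bud23 (0.982) and the glutathione peroxidase gene Gpx3 (0.981). Gpr141b was closest to Ifi205 (0.986), Plbd1 (0.983) and the MHC class II gene H2-Ab1 (0.978). Cd36 was closest to Cmc4 (0.968), Kif5b (0.966) and the chemokine receptor gene Ccr2 (0.961). High correlations were common for some members and rarer for others, since 425 genes exceeded 0.9 with Trem3, 58 with Gpr141b and 50 with Cd36.

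Marker lists of cell types were set beside these genes, and most of their members were not called. Of 10 tested markers of myeloid progenitors, 6 rose in circulating against endogenous cells and 4 in irradiated against endogenous cells. Over all tested genes 5.33% and 0.472% were called higher in these comparisons. Their summed signal was 13248 to 40395 in circulating, 7926 to 16742 in irradiated and 2286 to 3298 in endogenous libraries, lowest in circulating replicate 1 and irradiated replicate 2 within their groups. Of 5 tested dendritic cell markers 3 rose in circulating against endogenous cells, Xcr1, Clec9a and H2-Aa. The summed signals of the list overlapped, at 675 to 1375 and 780 to 967. Flt3, which was not called, alone held 342 to 766 of the circulating and 642 to 870 of the endogenous sums. Of 10 tested monocyte and macrophage markers 1 rose, Ccr2, and the sums were 189 to 609 in circulating, 151 to 166 in irradiated and 133 to 157 in endogenous libraries. Both of these sums were highest in circulating replicate 2, the library in which Cd36 and Gpr141b peaked. So were the circulating sums of the B cell, megakaryocyte, mature neutrophil and LSK gate lists. The LSK gate sum was 546 there, beside 537 in circulating replicate 3. Within the lists, Flt3 of the dendritic cell list was highest in circulating replicate 1 and Csf1r of the monocyte list in replicate 3. Ccr2 alone had 93.2, 344 and 117 in the circulating libraries, 54.6, 41.1 and 50.3 in the irradiated and 33.0, 22.5 and 26.6 in the endogenous. The part of these cell types in the results was not tested, and in bulk samples more cells of a type and more RNA per cell cannot be told apart.

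Of 11 tested erythroid markers 1 rose in circulating against endogenous cells, Klf1, and the sums overlapped, at 1441 to 2619 and 1546 to 2331. Car2, which was not called, alone held 1065 to 1446 of the circulating and 1183 to 2022 of the endogenous sums. Of 7 tested B cell markers 2 rose, of 6 mast cell and basophil markers 1 rose and of 5 T and NK cell markers 1 rose. Of 11 mature neutrophil markers 2 fell and none rose, of 6 megakaryocyte markers 1 fell, and of 2 tested endothelial and stromal markers 1 fell. Of the 2 genes of the LSK gate 1 fell, Kit. Over all tested genes 8.63% were called in this comparison, and 5.33% were called higher. Not analysed here were 5 of the 7 endothelial and stromal markers and 1 marker each of the monocyte, erythroid, T and NK cell, dendritic cell and mast cell lists. No marker in the table was at 0 in all libraries. Their part in the members' values was not tested.

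Genes related to the members by family or pathway were listed, 191 in all, of which 123 were in the table and 120 were tested. In circulating against endogenous cells 7 rose and 5 fell. That is 10% of the tested related genes, near the 8.63% called among all tested genes, and their median log2 difference was 0.17 beside -0.04 over all tested genes. With library-size scaling alone, which moved the median of all genes by -0.18, 6 were higher and 11 lower. Of these 12 calls, Fcgr2b, Fcmr and Clec5a held under all 15 alternative settings. The other 9 were each lost under 4 to 12 of them, Fasn least often. Leaving out any 1 library lost between 1 (circulating replicate 1) and 9 (endogenous replicate 1) of the 12 calls. None passed in circulating against irradiated cells, where 0.029% of all tested genes were called and 13 related genes had an unadjusted p under 0.05. None passed in irradiated against endogenous cells either, where 22 had an unadjusted p under 0.05.

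Among Fc receptor genes 2 of 10 tested rose and none fell in circulating against endogenous cells, beside 5.33% of all tested genes called higher. Fcgr2b, the inhibitory IgG receptor, had means of 61.6 ± 28.4 (circulating), 39.8 ± 4.55 (irradiated) and 17.0 ± 2.95 (endogenous), a log2 difference of 1.72 with an adjusted p of 0.00893 in limma's test. Fcmr, the IgM receptor, had 20.2 ± 16.7, 0.460 ± 0.349 and 0.304 ± 0.457, a log2 difference of 3.72 with an adjusted p of 0.0077 in limma's test. Ms4a2, the beta chain of the IgE receptor, had 34.2 ± 22.1 against 5.76 ± 3.68 and did not pass, with an adjusted p of 0.0535 in limma's test.

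Among Trem receptors and their adaptors 3 of 8 tested rose, beside the same 5.33% of all tested genes. Clec5a, a myeloid lectin receptor that pairs with DAP12, had 63.9 ± 26.5, 28.5 ± 13.9 and 5.48 ± 2.63 in the same order of groups, a log2 difference of 3.32 with an adjusted p of 0.00584 in limma's test. Tyrobp, which encodes DAP12 itself, had 129.6 ± 53.8, 78.8 ± 1.36 and 54.8 ± 3.62, a log2 difference of 1.12 (limma adjusted p 0.0342). Treml4 had 8.52 ± 5.80, 1.77 ± 0.875 and 1.52 ± 0.409, a log2 difference of 1.77 (limma adjusted p 0.0358). Trem1, which lies 853 bases from Trem3, had 5.66 ± 6.71 in circulating and 2.47 ± 1.51 in endogenous cells, and its adjusted p was 0.659 in limma's test.

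**Figure D4:**
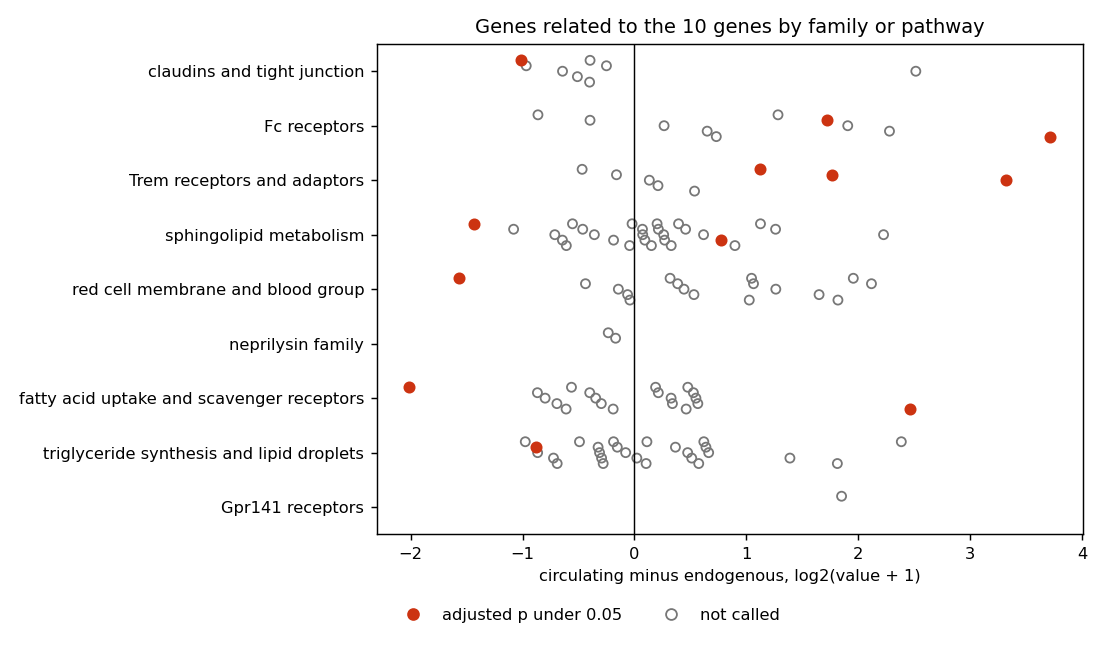
Difference in log2(value + 1) between circulating and endogenous cells for tested genes of 9 family or pathway lists, with 1 point per gene; filled points passed the test and open points did not. Filled points on the right are in the Fc receptor, Trem, sphingolipid and fatty acid lists.

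Among sphingolipid genes 1 of 28 tested rose and 1 fell. Sptlc2, a subunit of the enzyme of the first step of sphingolipid synthesis, had 187 ± 38.2 in circulating and 109.9 ± 27.4 in endogenous cells (limma adjusted p 0.0434). The ceramidase gene Acer2 had 5.52 ± 2.77 and 16.4 ± 6.60 (limma adjusted p 0.0483). Sgms1, the sphingomyelin synthase of the Golgi, had 124 ± 39.3 and 189 ± 29.5 with a log2 difference of -0.64, which did not pass (limma adjusted p 0.102), beside 3.59 for Sgms2.

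Among genes of fatty acid uptake and scavenger receptors 1 of 20 tested rose and 1 fell. The oxidised LDL receptor gene Olr1 had 19.1 ± 17.7 (circulating), 8.76 ± 3.42 (irradiated) and 1.81 ± 0.666 (endogenous) (limma adjusted p 0.031 for circulating against endogenous). The transporter gene Slc27a6 had 1.80 ± 2.30, 5.19 ± 2.01 and 8.73 ± 4.27 (limma adjusted p 0.0446). Of 26 tested genes of triglyceride synthesis and lipid droplets none rose and 1 fell, the fatty acid synthase gene Fasn, with 40.4 ± 2.44, 69.7 ± 13.3 and 75.4 ± 9.15 (limma adjusted p 0.0198). Dgat1, the other enzyme of the last step, had 33.5 ± 14.3, 27.0 ± 4.05 and 22.1 ± 3.74 and did not pass (limma adjusted p 0.30). Mogat2, which makes diglyceride and lies 36365 bases from Dgat2, had 12.6 ± 9.19 against 2.46 ± 4.02 (limma adjusted p 0.0753).

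Of 17 tested genes of the red cell membrane and blood groups none rose and 1 fell, Art4, with 8.34 ± 3.54 in circulating and 27.5 ± 12.3 in endogenous cells (limma adjusted p 0.0425). Xk, whose product is the partner of Kel, had 16.6 ± 12.4 and 11.1 ± 2.22 (limma adjusted p 0.713). Ermap and Rhag had log2 differences of 1.65 and 1.95 with limma adjusted p of 0.201 and 0.134. In the neprilysin family to which Kel belongs, neither Ece1 at -0.23 nor Ece2 at -0.17 passed.

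Of 8 tested claudin and tight-junction genes none rose and 1 fell, the junctional adhesion gene F11r, with 18.5 ± 3.20 (circulating), 29.4 ± 2.98 (irradiated) and 39.0 ± 10.2 (endogenous) (limma adjusted p 0.034). Cldn13 had 4.32, 7.77 and 52.4 in the circulating libraries, a mean of 21.5 ± 26.8 against 1.47 ± 0.872, and did not pass (limma adjusted p 0.0658). Gpr141 had 3.54, 28.8 and 47.2 in the circulating libraries and means of 8.33 ± 4.36 in irradiated and 4.30 ± 1.42 in endogenous cells (limma adjusted p 0.132 for circulating against endogenous). It was highest in circulating replicate 3, while its neighbour Gpr141b was highest in replicate 2. No other prominin gene was tested.

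The nearest genes on either side of each member in the deposited table gave 20 neighbours, all tested. In circulating against endogenous cells 2 rose and none fell, beside 5.33% of all tested genes called higher. The neighbours' median log2 difference was -0.02. Those that rose were Treml4, 5454 bases from Trem3, and Epdr1, 107499 bases from Gpr141b, with 29.4 ± 16.6 (circulating), 17.3 ± 6.53 (irradiated) and 7.79 ± 4.98 (endogenous) (limma adjusted p 0.0412). Fis1 lies 382 bases from Cldn15 and had means of 146, 143 and 129 (limma adjusted p 0.415). None of the 20 passed in either of the other comparisons.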

How the data were processed

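RNA of sorted LSK cells was isolated with a low-input kit, amplified with SMART-Seq v4 and made into Nextera XT libraries, per the labels' protocols. Per the submitters' processing notes, the tools include RSEM 1.3.1, CASAVA and limma, with the build mm10. No annotation release, scaling method or filter is given in the sources used here.

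The authors deposited a normalised signal, not counts: 14461 genes in 9 columns. Each deposited value equals an estimated count with 2 decimals plus 0.5, multiplied by a constant of its column. The recovered estimated counts total 14065855 to 27012345 per library. Depth here bears on counting error alone, because amplified reads without molecular identifiers repeat the same molecules.

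Symbols came from GENCODE M21 and matched 14405 genes. Testing took the 13771 genes that reached a value of 1 in 3 or more libraries. Log2(value + 1) was fitted with limma-trend (limma 3.58.1, R 4.3.3), robust, all 9 libraries together, without covariates. P-values were Benjamini-Hochberg adjusted over all tested genes and called under 0.05. The fit was tested on simulated data. Alternatives were a pseudocount of 0.5, no filter, library-size scaling, sample weights, only the groups compared, a replicate block and leaving out each library.

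The members, the 10 lists of related genes and the 11 marker lists were chosen with earlier results of these data known. Named genes were the members, up to 4 genes of each related list (called genes first, then by size of difference), the 3 genes most like each member, the nearest neighbours, and Ly6a, Kit and Ptprc. Genes most like a member exclude predicted loci, immunoglobulin and T cell receptor segments and genes with a mean log2 value under 2. Other genes named were chosen after their values were seen. Some genes that these rules select are left out of the text.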

Additional observations from a re-analysis of the deposited data

How the results depend on the processing

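No member's difference and neither of the members' median differences changed sign under an alternative setting. The same held for the differences of the 12 related genes called in circulating against endogenous cells. It is not stated here for the other named genes. Library-size scaling turned the balance of calls. For irradiated against endogenous cells, 3 of the 10 genes were called, 5 with sample weights, 5 with only the groups compared, and 0 to 5 when 1 library was left out. Of the related genes 12 were called for circulating against endogenous cells, 5 with sample weights, 3 with only the groups compared, and 4 to 29 when 1 library was left out. Without circulating replicate 1 there were 29, and without endogenous replicate 1 there were 4. None was called for circulating against irradiated cells, and 0 to 3 when 1 library was left out. None was called for irradiated against endogenous cells, 10 with sample weights, 7 with only the groups compared, and 0 to 2 when 1 library was left out. The cause of these shifts was not tested. The members' median log2 difference, 3.50 against endogenous and 1.53 against irradiated cells, stayed within 3.19 to 4.13 and 1.18 to 2.02.

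Over all genes, 1189 were called for circulating against endogenous cells (734 higher), 494 with sample weights, 239 with only the groups compared, 2224 without circulating replicate 1 and 257 without endogenous replicate 1. Library-size scaling gave 1153, of which 337 were higher and 816 lower, against 734 and 455 as deposited. Of the related genes it gave 6 higher and 11 lower, against 7 and 5. Libraries with the same replicate number deviated together with r from -0.02 to 0.18. In circulating against irradiated cells 2 of 3 correlated best with their own number. So few correlations cannot settle whether libraries are paired, and the main fit took no pairing. The replicate block tied the endogenous libraries by number as well, so a block of circulating and irradiated libraries alone was not fitted. A code in the titles ties each circulating library to an irradiated library, with no meaning stated. With a replicate block, 2 members were called for irradiated against endogenous cells (Fcgr3 was lost), and 14, 0 and 0 related genes for circulating against endogenous, circulating against irradiated and irradiated against endogenous cells. Depth limits Kel in endogenous cells, where an estimated count was as low as 2.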

Other observations

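Igsf6 and Mgl2, which are not among the 10 and encode no granule protein, had log2 differences within the members' range in circulating against endogenous cells. Fcmr, Clec5a and immunoglobulin genes stood in or above that range too. Igsf6, Mgl2 and the other genes here were chosen after their values were seen. Igsf6, an immunoglobulin-superfamily receptor gene of myeloid cells, had mean signals of 264 (circulating), 92.0 (irradiated) and 22.8 (endogenous), a log2 difference of 3.43. Mgl2, a lectin gene of macrophages and dendritic cells, had 41.3, 14.5 and 2.47, a log2 difference of 3.32. The dendritic cell receptor gene Xcr1 had a smaller log2 difference of 2.79, with 24.1, 118 and 30.8 in circulating replicates 1, 2 and 3. The MHC class II gene H2-Aa had a log2 difference of 1.82, with 192, 822 and 294. Both were highest in circulating replicate 2, as were Cd36 and Gpr141b. Flt3, of the same marker list, was highest in circulating replicate 1.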
